A study of Mus musculus with 9 samples.

Results

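The 44 kinesin motor genes of the mouse were followed in 3 kinds of purified primary neural culture. They were chosen by symbol alone: every gene named Kif with a number and an optional letter, Kifc1 to Kifc3, and the light chain genes Klc1 to Klc4. They are 44 of the 24170 genes counted, and Kif28, which also carries such a name, was not analysed here. Sensory neurons of the dorsal root ganglia (DRG), whose long axons run to skin and muscle, were taken from embryos at E13.5 and kept in culture for about 2 weeks. Oligodendrocyte precursor cells (OPC), which divide and give rise to myelinating cells, came from the cortex of pups of either sex at postnatal day 6 to 9 and were cultured for 6 to 7 days. Astrocytes came from the cortex of pups of either sex at postnatal day 1 to 3 and were grown to confluence over roughly 21 days. The labels name no strain, allele or treatment. Each cell type had 3 replicates, and nothing in the labels says whether these were separate cultures, so p-values measure the spread between these samples, which may be technical. Age and time in culture differ with cell type in every comparison, and the tissue differs wherever DRG neurons are compared, so they cannot be told apart from cell type.

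Kinesins are motor proteins that use ATP to move along microtubules. In neurons, transport kinesins carry vesicles, mitochondria and protein complexes from the cell body along the axon, and light chains and adaptors link many of them to their cargo. In dividing cells another set of kinesins builds the spindle, moves chromosomes and helps to separate the daughter cells, and further members work in cilia. By role, the 44 genes comprised 15 transport heavy chains, 4 light chains, 12 mitotic kinesins and 13 others, of which 6 are known from cilia.

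Assigned counts per library ran from 30710093 to 53594210, and levels are CPM, the counts per 1e+06 reads of a library whose size was scaled by TMM factors, which adjust for its composition. Of the 44 genes, 41 passed the filter on low counts and were tested. The other 3 were Kif2b with 1 count, Kif12 with 4 counts and Klc3 with 2 counts over all 9 libraries. Differences were tested with edgeR's quasi-likelihood test across 14848 genes with Benjamini-Hochberg adjustment at 0.05, and "higher", "lower", "rose" and "fell" of a gene mean that it passed. The defining markers followed the labels. The 6 neuron markers summed to a mean of 17584 CPM in DRG neurons, 243 CPM in OPC and 22.9 CPM in astrocytes, the 6 OPC markers to 17.0 CPM in DRG neurons, 5921 CPM in OPC and 885 CPM in astrocytes, and the 6 astrocyte markers to 16.4 CPM in DRG neurons, 1012 CPM in OPC and 6638 CPM in astrocytes. The neuron marker Prph was at 0 counts in every library. In bulk RNA, fewer cells of a type and less RNA per cell cannot be told apart.

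Both groups of motors divided the cultures in opposite directions. The 15 transport heavy chains together took 6148 ± 201 CPM in DRG neurons, 1837 ± 275 CPM in OPC and 1600 ± 120 CPM in astrocytes (SD, n = 3 each). The 12 mitotic kinesins together took 16.4 ± 3.37 CPM in DRG neurons, 1305 ± 445 CPM in OPC and 470 ± 343 CPM in astrocytes. Transport heavy chains thus made up 95.3% ± 0.619 of all kinesin counts in DRG neurons, against 57.2% ± 6.51 in OPC and 70.2% ± 6.63 in astrocytes. Mitotic kinesins made up 0.255% ± 0.0589 in DRG neurons, against 39.6% ± 6.65 in OPC and 19.1% ± 12.2 in astrocytes. These are shares of counts and not of molecules, since longer transcripts give more counts. Reads shared by isoforms were not assigned either, so genes with several isoforms are under-counted. Among these are the transport genes Kif1a, Kif1b, Kif3a, Kif5a, Kif17 and Kif21a and the mitotic Kif2c and Kif20a. Set against library sizes scaled by TMM factors, all kinesin genes together took 0.645% ± 0.0172 of a DRG library. An OPC library gave 0.324% ± 0.0629 and an astrocyte library 0.230% ± 0.0379. The factors ran from 0.881 to 0.963 for DRG libraries and from 1.08 to 1.10 for astrocyte libraries. As shares of unscaled counts, the values for these cell types therefore lie closer together.

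**Figure D1:**
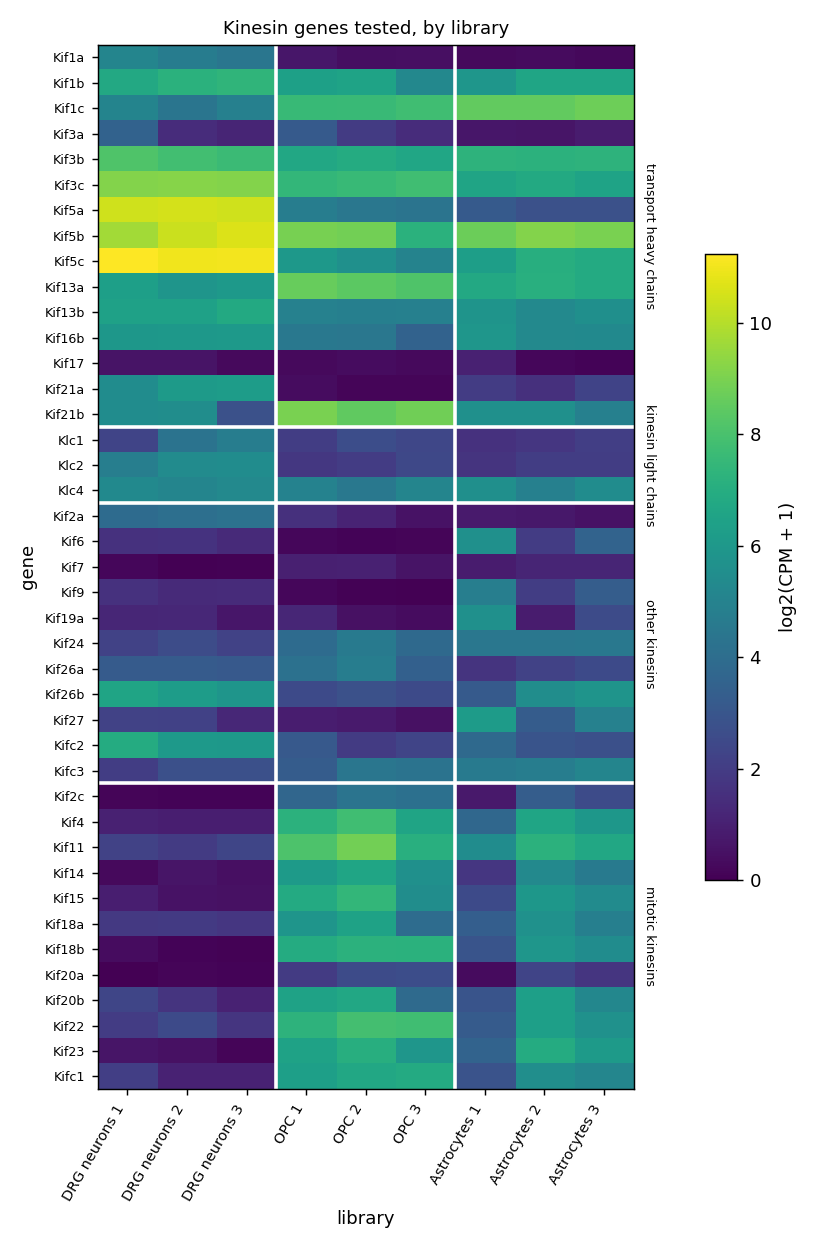
Level of each of the 41 tested kinesin genes (rows, grouped by role) in each of the 9 libraries (columns), as log2(CPM + 1) on the colour scale. The Kif5 rows are bright in the 3 DRG libraries, where all 12 mitotic rows are dark.

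Against astrocytes, 14 of the 41 tested kinesin genes were higher in DRG neurons and 21 were lower. Over all genes tested the same call was made for 27.4% as higher and 32.8% as lower. Against OPC, 18 were higher in DRG neurons and 19 lower, where 28.4% and 31.1% of all genes were so called. In OPC against astrocytes, 11 were higher and 11 lower, beside 26.3% and 25.5% of all genes. As shares of the 41 these were 34.1% higher and 51.2% lower, 43.9% higher and 46.3% lower, and 26.8% each way, so the last lay near the background. The direction differed by role. Of the 15 transport heavy chains, 9 were higher and 2 lower in DRG neurons against astrocytes, 10 higher and 3 lower against OPC, and 6 higher and 6 lower in OPC against astrocytes. Their median log2 fold changes were 1.01, 1.55 and -0.44, beside -0.13, -0.08 and 0.09 over all genes. All 12 mitotic kinesins were lower in DRG neurons in both comparisons, with median log2 fold changes of -5.34 against astrocytes and -6.85 against OPC. In OPC against astrocytes 4 of the 12 were higher and none lower, with a median of 1.58. The 4 were 33.3% of the 12, little above the 26.3% of all genes.

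The Kif5 genes encode the heavy chains of conventional kinesin, the main motor of fast axonal transport. Kif5a, on chromosome 10 at 127225695 to 127266348 (GRCm38.p6), stood at 1368, 1468 and 1378 CPM in DRG neurons, at 26.5, 21.3 and 19.1 CPM in OPC and at 7.96, 5.82 and 5.81 CPM in astrocytes. None of the groups overlapped, and Kif5a was also higher in OPC than in astrocytes. The fold was 215 against astrocytes (log2 fold change 7.75, SE 0.26, adjusted p = 3.61e-07) and 63.1 against OPC (5.98, SE 0.24, adjusted p = 1.26e-06), and 3.41 for OPC against astrocytes (1.77, SE 0.20, adjusted p = 0.00015). Kif5c, on chromosome 2 at 49619286 to 49774778, stood at 2420, 2034 and 2093 CPM in DRG neurons, at 62.4, 49.5 and 31.3 CPM in OPC and at 79.0, 132 and 116 CPM in astrocytes. It was thus high in every DRG library and lowest in OPC, with no overlap between groups. The fold was 20.0 against astrocytes (log2 fold change 4.32, SE 0.32, adjusted p = 7.86e-06) and 45.7 against OPC (5.51, SE 0.34, adjusted p = 4.41e-06).

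Kif5b, the family member made in most tissues, was spread more evenly. It stood at 823, 1300 and 1589 CPM in DRG neurons, at 489, 459 and 145 CPM in OPC and at 424, 565 and 500 CPM in astrocytes. DRG neurons lay above both other cell types without overlap, while OPC and astrocytes overlapped. Its log2 fold change was 1.32 against astrocytes (SE 0.43, adjusted p = 0.0241) and 1.76 against OPC (SE 0.43, adjusted p = 0.00652). The call against astrocytes was lost with library size alone as the scaling (adjusted p = 0.0518) and without any of 4 libraries: Astrocytes replicate 1 (0.0613), Astrocytes replicate 3 (0.0636), DRG replicate 2 (0.0559) or DRG replicate 3 (0.0788). Of all Kif5 counts, Kif5a took 29.2% ± 1.72 in DRG neurons, against 6.12% ± 3.16 in OPC and 1.11% ± 0.395 in astrocytes, and Kif5b took 25.4% ± 6.93 in DRG neurons, against 81.8% ± 6.65 in OPC and 81.3% ± 1.48 in astrocytes. Kif5a has 2 accessions that share sequence, so its share counts isoform-specific reads only.

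Light chains pair with the Kif5 heavy chains and bind cargo. Klc2 stood at 26.8, 42.4 and 43.4 CPM in DRG neurons, at 2.55, 3.03 and 4.48 CPM in OPC and at 2.22, 3.13 and 3.07 CPM in astrocytes. It was higher in DRG neurons than in either glial culture, by log2 fold changes of 3.74 against astrocytes (SE 0.34, adjusted p = 2.31e-05) and 3.49 against OPC (SE 0.33, adjusted p = 3.37e-05), and the 2 glial groups overlapped. Klc1 stood at 3.99, 18.2 and 25.9 CPM in DRG neurons, at 3.17, 5.27 and 4.33 CPM in OPC and at 2.01, 2.42 and 3.29 CPM in astrocytes. DRG replicate 1 lay within the OPC values. The log2 fold change was 2.64 against astrocytes (SE 0.60, adjusted p = 0.00439) and 1.91 against OPC (SE 0.59, adjusted p = 0.0188), and the call against OPC was lost without DRG replicate 2 (adjusted p = 0.0506), DRG replicate 3 (0.0807) or OPC replicate 1 (0.063). Klc4 ran from 33.6 to 39.3 CPM in DRG neurons, from 21.5 to 34.0 CPM in OPC and from 28.4 to 48.1 CPM in astrocytes, and passed in no comparison, though without OPC replicate 3 it passed as higher in DRG neurons than in OPC (log2 fold change 0.74 in place of 0.35, adjusted p = 0.0491).

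**Figure D2:**
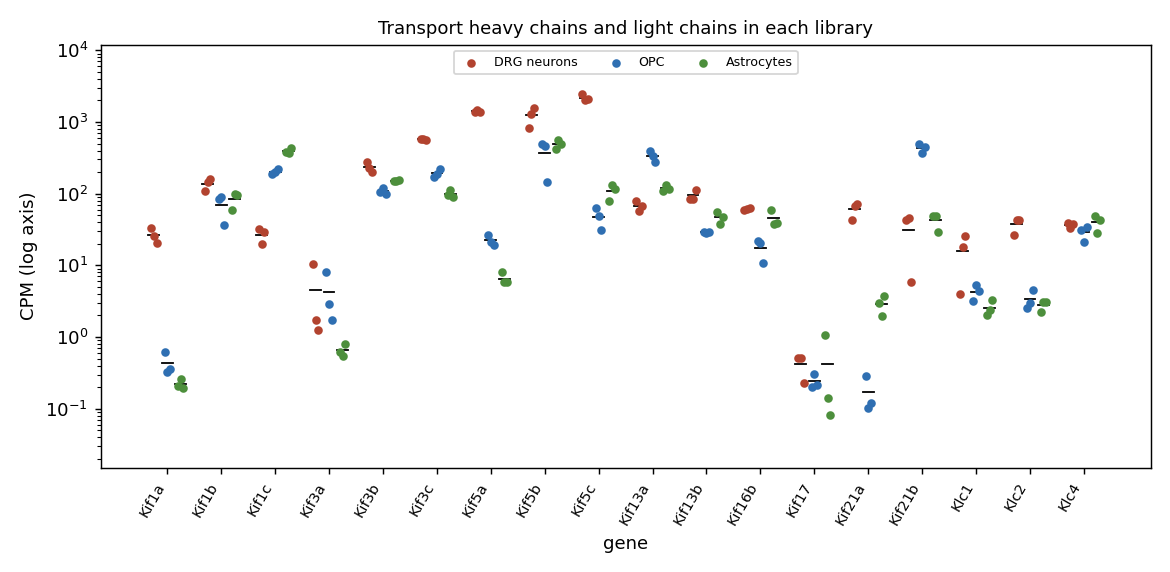
CPM on a log axis of the 15 transport heavy chains and 3 tested light chains; each point is 1 library and each black line a group mean (n = 3). Kif5a, Kif5c and Kif1a lie far above both glial cultures in DRG neurons, whereas Kif1c, Kif13a and Kif21b lie lowest there by mean.

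The Kif3 motors work as heteromers and serve both axonal transport and cilia. Kif3c, a partner found mainly in neurons, stood at 572, 588 and 562 CPM in DRG neurons, at 173, 191 and 222 CPM in OPC and at 94.8, 113 and 91.3 CPM in astrocytes. The 3 groups were in that order without overlap, at log2 fold changes of 2.52 against astrocytes (SE 0.17, adjusted p = 4.67e-06), 1.55 against OPC (SE 0.16, adjusted p = 5.78e-05) and 0.97 for OPC against astrocytes (SE 0.16, adjusted p = 0.00115). Antisense transcripts overlap its exons by up to 2617 bases, and as the strand setting of the counting was not given in the sources used here, reads of both strands cannot be told apart. Kif3b averaged 237 ± 38.5 CPM in DRG neurons, 108 ± 10.2 CPM in OPC and 151 ± 1.66 CPM in astrocytes, and passed as higher in DRG neurons in both comparisons. Against astrocytes that call was lost with library size alone (adjusted p = 0.0877).

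Kif3a, their common partner, was counted at 10.5, 1.71 and 1.27 CPM in DRG neurons, 8.07, 2.89 and 1.71 CPM in OPC and 0.621, 0.546 and 0.802 CPM in astrocytes, from 3 accessions that share most of their sequence. DRG replicate 1 and OPC replicate 1 stood above the rest. It passed as higher than in astrocytes in both DRG neurons (adjusted p = 0.0238) and OPC (adjusted p = 0.0311). The first call was lost without DRG replicate 1 (log2 fold change 1.19 in place of 2.76, adjusted p = 0.141) or any 1 astrocyte library (0.0546 to 0.0678), and the second without OPC replicate 1 (1.82 in place of 2.68, adjusted p = 0.116) or any 1 astrocyte library (0.0688 to 0.0811).

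Kif1a, a fast motor of synaptic vesicle precursors, stood at 33.2, 25.5 and 20.6 CPM in DRG neurons, at 0.626, 0.326 and 0.361 CPM in OPC and at 0.207, 0.261 and 0.194 CPM in astrocytes. DRG neurons lay far above both other groups, with log2 fold changes of 6.88 against astrocytes (SE 0.42, adjusted p = 3.08e-06) and 5.91 against OPC (SE 0.39, adjusted p = 6.38e-06). Kif1a has 2 listed isoforms, and reads that they share were not assigned. Its level is thus under-counted and cannot be set beside those of other genes. Kif1c, known for traffic between the Golgi and the endoplasmic reticulum, ran the other way, at 32.2, 19.6 and 28.8 CPM in DRG neurons, 190, 198 and 224 CPM in OPC and 376, 373 and 432 CPM in astrocytes. Its groups did not overlap. The log2 fold change was -3.88 against astrocytes (SE 0.23, adjusted p = 2.54e-06), -2.92 against OPC (SE 0.22, adjusted p = 1.01e-05) and -0.95 for OPC against astrocytes (SE 0.20, adjusted p = 0.00394).

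Kif1b, on chromosome 4 at 149176319 to 149307773, differed between the cultures more by isoform than by its sum. Summed over its accessions the gene stood at 108, 143 and 160 CPM in DRG neurons, at 83.8, 90.9 and 37.1 CPM in OPC and at 58.3, 98.0 and 97.4 CPM in astrocytes. The gene sum did not pass against astrocytes (log2 fold change 0.70, SE 0.35, adjusted p = 0.109) and passed narrowly against OPC (0.96, SE 0.35, adjusted p = 0.0384). The first passed with only the compared libraries (adjusted p = 0.0322) and without OPC replicate 3 (0.0203), and the second was lost with library size alone (0.067) and without DRG replicate 2 (0.0875), DRG replicate 3 (0.112), OPC replicate 1 (0.051) or Astrocytes replicate 3 (0.0525).

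Its 2 counted accessions differ in length: the longer spans 10233 bases and codes for 1816 amino acids, and the shorter spans 6991 bases and codes for 1150. Of the protein's forms, the long KIF1Bbeta is known to carry synaptic vesicle precursors and the short KIF1Balpha to carry mitochondria. The longer accession had 3025, 6562 and 5863 counts in DRG neurons, 205, 347 and 205 in OPC and 55, 112 and 82 in astrocytes. The shorter had 168, 247 and 353 counts in DRG neurons, 3543, 4119 and 1336 in OPC and 3044, 4017 and 3440 in astrocytes. The longer form therefore took 94.7%, 96.4% and 94.3% of the isoform-specific counts in DRG neurons, 5.47%, 7.77% and 13.3% in OPC and 1.77%, 2.71% and 2.33% in astrocytes, and no group overlapped another. Tested across 16010 accessions, the longer form rose in DRG neurons against astrocytes (log2 fold change 6.04, SE 0.41, adjusted p = 4.52e-06; 27.4% of accessions were higher) and against OPC (4.56, SE 0.38, adjusted p = 1.58e-05; 28.4%). It was also higher in OPC than in astrocytes (1.48, SE 0.35, adjusted p = 0.00637; 25.7%). The shorter form fell in DRG neurons against astrocytes (-3.63, SE 0.42, adjusted p = 9.23e-05; 32.6% of accessions were lower) and against OPC (-3.29, SE 0.42, adjusted p = 0.000156; 30.7%), and did not pass in OPC against astrocytes (-0.35, SE 0.38, adjusted p = 0.477; 25.2%). The share of the longer form was highest among OPC in replicate 3, a library that was low in counts of long transcripts.

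**Figure D3:**
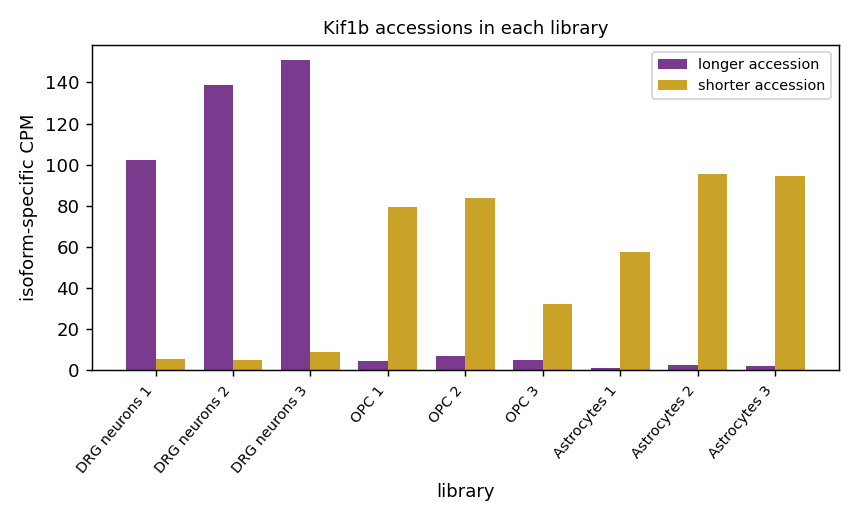
CPM of reads specific to the longer (purple) and the shorter (yellow) accession of Kif1b in each library. The longer one leads in the 3 DRG libraries and the shorter one in all 6 glial libraries.

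Klc1 also had counted accessions that moved apart. The accession that codes for 560 amino acids had 117, 862 and 1001 counts in DRG neurons, 115, 223 and 117 in OPC and 84, 74 and 81 in astrocytes. The one that codes for 616 had 1, 3 and 1 counts in DRG neurons, 24, 36 and 61 in OPC and 22, 28 and 37 in astrocytes. Against astrocytes the log2 fold changes were 3.10 (SE 0.62, adjusted p = 0.00202) and -3.94 (SE 0.66, adjusted p = 0.000772). Klc1 has 8 accessions, and reads that they share were not assigned, so these counts cover only part of the gene.

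Other transport heavy chains split between the cultures. Kif21a, which restrains microtubule growth at the cell edge, stood at 43.6, 67.9 and 72.4 CPM in DRG neurons, at 0.291, 0.102 and 0.120 CPM in OPC and at 3.01, 1.97 and 3.76 CPM in astrocytes. Its log2 fold change was 4.39 against astrocytes (SE 0.42, adjusted p = 3.13e-05) and 8.47 against OPC (SE 0.52, adjusted p = 4.41e-06), with only 23 counts over the OPC libraries; without OPC replicate 1 the second was 9.07. Its relative Kif21b was high in OPC instead, at 42.7, 45.1 and 5.86 CPM in DRG neurons, 497, 365 and 443 CPM in OPC and 49.2, 49.5 and 28.8 CPM in astrocytes. DRG replicate 3 stood far below the other DRG libraries, and the remaining DRG values lay among those of astrocytes. OPC exceeded astrocytes by a log2 fold change of 3.35 (SE 0.64, adjusted p = 0.00233), and DRG neurons were lower than OPC (-3.80, SE 0.66, adjusted p = 0.00094). Kif13a, which moves endosomes and mannose 6-phosphate receptors, averaged 68.2 ± 11.1 CPM in DRG neurons, with a lowest library of 58.0 CPM, and stood at 398, 337 and 279 CPM in OPC and at 108, 134 and 115 CPM in astrocytes. OPC was highest and DRG neurons lowest without overlap, at -2.31 for DRG neurons against OPC (SE 0.20, adjusted p = 2.14e-05) and a 2.84-fold level in OPC over astrocytes (adjusted p = 0.000316).

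Kif13b averaged 94.4 ± 16.2 CPM in DRG neurons, 28.9 ± 0.589 CPM in OPC and 46.8 ± 8.64 CPM in astrocytes, and all 3 comparisons passed. Kif16b, an endosome motor, averaged 62.0 ± 1.94 CPM in DRG neurons, 17.7 ± 6.00 CPM in OPC and 45.3 ± 11.4 CPM in astrocytes. It was lower in OPC than in either other culture, and DRG neurons against astrocytes did not pass (adjusted p = 0.193), though they did without OPC replicate 3 (0.0396). Kif17, a dendritic motor, had few reads, with 48 counts over the DRG libraries, 33 over OPC and 65 over astrocytes, and passed in no comparison. Astrocytes replicate 1 held 56 of the 65, and without it Kif17 passed against astrocytes as higher in DRG neurons (log2 fold change 1.83, adjusted p = 0.0276).

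Among partners of these motors, 19 of 21 transport adaptors in the files were higher and 1 was lower in DRG neurons against astrocytes, and 17 were higher and 1 lower against OPC, while OPC against astrocytes gave 6 higher and 2 lower. The shares higher were 90.5%, 81.0% and 28.6%, beside 27.4%, 28.4% and 26.3% of all genes, so the last lay near the background. Kifap3, the cargo subunit of the Kif3 motor, averaged 696 ± 24.9 CPM in DRG neurons, 217 ± 56.9 CPM in OPC and 161 ± 20.7 CPM in astrocytes. The exception in both neuronal comparisons was Hap1, an adaptor that binds huntingtin, which averaged 1.81 ± 0.847 CPM in DRG neurons, 26.8 ± 3.76 CPM in OPC and 6.52 ± 3.13 CPM in astrocytes. Of 24 tested genes of dynein and dynactin, the motor that runs back to the cell body, 19 were higher and 1 lower in DRG neurons against astrocytes, 17 and 1 against OPC, and 5 and 0 in OPC against astrocytes, or 79.2%, 70.8% and 20.8% higher beside those same shares of all genes. The lower one in both neuronal comparisons was Nde1, a dynein regulator known also from dividing neural progenitors.

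All 12 mitotic kinesins were lower in DRG neurons than in either glial culture, though some were still counted there, such as Kif11 with 107 to 158 counts per library. Kif11, the motor that pushes spindle poles apart, stood at 3.62, 2.93 and 4.08 CPM in DRG neurons, at 274, 465 and 136 CPM in OPC and at 43.5, 150 and 107 CPM in astrocytes. OPC and astrocytes overlapped, and DRG neurons lay below both, at log2 fold changes of -4.82 against astrocytes (SE 0.58, adjusted p = 0.00012) and -6.36 against OPC (SE 0.63, adjusted p = 3.84e-05). Kif18b, which shortens astral microtubules, stood at 0.305, 0.0842 and 0.0516 CPM in DRG neurons, 15 counts in all, at 120, 146 and 145 CPM in OPC and at 6.66, 58.2 and 43.1 CPM in astrocytes. No group overlapped another, and the log2 fold change was -8.03 against astrocytes (SE 0.95, adjusted p = 0.000102) and -9.96 against OPC (SE 1.00, adjusted p = 4.26e-05). Without DRG replicate 1 these were -8.95 and -10.89.

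Kif22, which pushes chromosome arms outward, stood at 2.94, 4.72 and 2.30 CPM in DRG neurons, at 153, 233 and 224 CPM in OPC and at 8.30, 79.9 and 51.2 CPM in astrocytes. Kif4, a motor of chromosomes and of the central spindle, stood at 1.02, 0.926 and 0.904 CPM in DRG neurons, at 147, 218 and 93.3 CPM in OPC and at 12.4, 95.6 and 61.4 CPM in astrocytes. Kif23, part of the centralspindlin complex of cytokinesis, stood at 0.575, 0.421 and 0.103 CPM in DRG neurons, at 88.1, 133 and 59.3 CPM in OPC and at 10.9, 121 and 69.2 CPM in astrocytes. For each of these the DRG values lay below all glial values. The other 7 mitotic genes were Kif2c, which dismantles microtubules at centromeres, Kif14, Kif20a and Kif20b of cytokinesis, Kif15, which backs up Kif11 in human cells, Kif18a, which dampens chromosome movement, and the minus-end motor Kifc1. Over all 12 genes, log2 fold changes ran from -8.03 to -3.50 against astrocytes and from -9.96 to -4.36 against OPC. Without Astrocytes replicate 2 the fold itself, before taking log2, was over 1.5 times smaller against astrocytes for 9 of them, and all 12 remained called. Their log2 fold changes were then -5.01 in place of -5.72 for Kif14, -5.26 in place of -5.88 for Kif15 and -2.84 in place of -3.50 for Kif18a. Kif20a was at -4.22 in place of -4.96, Kif20b at -3.11 in place of -4.06 and Kif22 at -3.16 in place of -3.80. Kif23 was at -6.79 in place of -7.53, Kif2c at -5.12 in place of -5.90 and Kif4 at -5.28 in place of -5.89. Without DRG replicate 2 the change of Kif20a was -5.55 against astrocytes and -6.58 against OPC, and without DRG replicate 1 that of Kifc1 was -4.74 and -6.53.

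**Figure D4:**
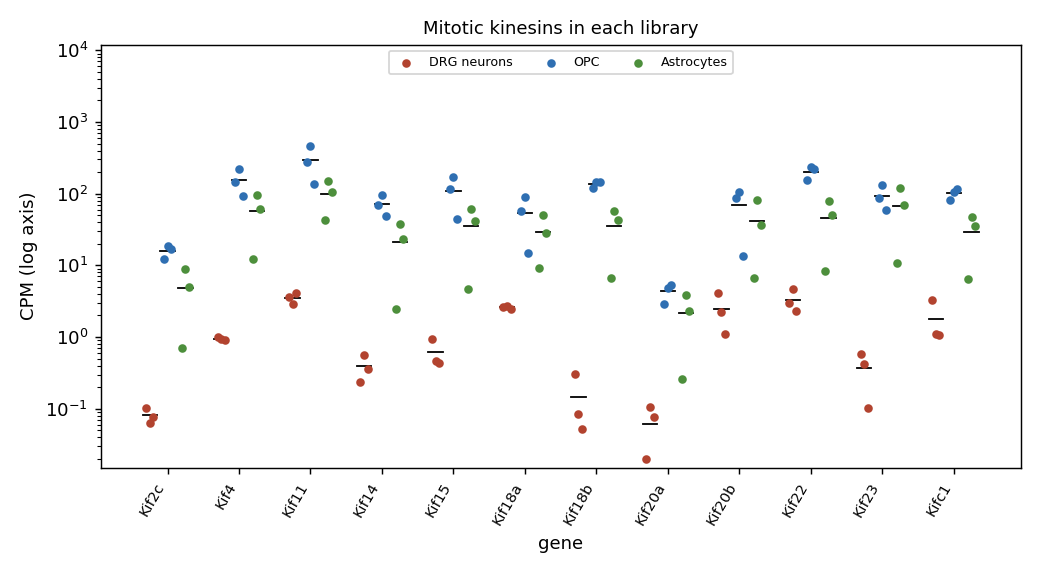
CPM on a log axis of the 12 mitotic kinesins; each point is 1 library and each black line a group mean (n = 3), and the DRG library with 0 counts of Kif20a is drawn at 0.02. Astrocytes replicate 1, the leftmost green point of each gene, is the lowest of its group for every gene.

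Reads of Kifc1 may be divided with its near-identical copy Kifc5b, which itself averaged 1.97 ± 0.373 CPM in DRG neurons, 55.4 ± 19.0 CPM in OPC and 13.0 ± 9.02 CPM in astrocytes, so the level of Kifc1 is uncertain. Exons of Kif20a overlap Cdc23 on the other strand by 977 bases and those of Kif4 overlap Pdzd11 by 683 bases, with the same limit on strand as for Kif3c.

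Between the glial cultures, 4 mitotic kinesins passed as higher in OPC: Kif11 (log2 fold change 1.54, SE 0.50, adjusted p = 0.0288), Kif18b (1.93, SE 0.66, adjusted p = 0.0345), Kif22 (2.13, SE 0.66, adjusted p = 0.0225) and Kifc1 (1.79, SE 0.66, adjusted p = 0.0452). These 4 were 33.3% of the 12 mitotic kinesins, little above the 26.3% of all genes so called. The count was 0 without Astrocytes replicate 3 or OPC replicate 2, 1 without OPC replicate 1 or OPC replicate 3, and 7 without Astrocytes replicate 2. It was also 1 when only the libraries compared were fitted. Kifc1 was lost as well under RLE scaling (adjusted p = 0.0529) and library size alone (0.0627), and Kif22 was at 2.78 without Astrocytes replicate 2. Without Astrocytes replicate 1, Kif11 was lost (adjusted p = 0.057), and Kif18b, Kif22 and Kifc1 stayed called. Kif2c (adjusted p = 0.0221), Kif4 (0.0477) and Kif14 (0.0276) then passed as higher in OPC. Astrocytes replicate 1 stood apart, with a sum of 112 CPM over the mitotic kinesins against 795 and 503 CPM in the other astrocyte libraries. The 28 mitosis partners, other genes of the spindle and cell cycle, moved with it, at 42.5 to 58.0 CPM in DRG neurons, 4364 to 7827 CPM in OPC, 337 CPM in that astrocyte library and 3397 and 2179 CPM in the others. The 6 OPC markers, at 281, 1162 and 1211 CPM in Astrocytes replicates 1, 2 and 3, and the 6 fibroblast markers, at 13.4, 326 and 241 CPM, were lowest in that library too. Their part in the mitotic differences was not tested. All 28 partners were lower in DRG neurons than in OPC and 27 were lower than in astrocytes. The exception was Tpx2, at 0.0313 ± 0.0275 CPM in DRG neurons and 0.366 ± 0.357 CPM in astrocytes (adjusted p = 0.0534). In OPC against astrocytes 10 of the 28 were higher and none lower. Of all genes 31.1% were lower in DRG neurons than in OPC and 32.8% than in astrocytes, and 26.3% were higher in OPC than in astrocytes, where the partners' share was 35.7%.

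Promoter sequences show what the mitotic genes share outside the counts. RefSeq windows (GRCm38.p6) of 250 bases before and 50 after the start site were at hand for 35 members, 11 of the 12 mitotic ones among them. They were searched on both strands for TTTGAA, which reads TTCAAA on the other strand and is the core of the cell cycle homology region to which the DREAM repressor complex is known to bind, for its variant TTTAAA, which reads the same on both strands and was counted apart, and for CCAAT, the box of the factor NF-Y, which reads ATTGG on the other strand. TTTGAA was found in 10 of the 11 mitotic windows (90.9%), in 1 of 13 windows of transport heavy chains and in 17.9% of all 32851 windows. Within 30 bases of the start, a distance chosen after the positions were seen, it lay in 8 of the 11 mitotic windows (72.7%), in 0 of the 13 transport windows and in 2.90% of all windows. It also lay there in 1 of 12 windows of the other kinesins (8.33%). That window belongs to Kif26b, which was higher in DRG neurons than in OPC. CCAAT was in 7 of the 11 mitotic windows (63.6%), in 4 of the 13 transport windows (30.8%) and in 37.4% of all windows. TTTAAA was in 2 of the 11 (18.2%), in 0 of the 13 and in 13.2% of all windows. Those 8 stretches, from 75 bases before to 30 bases after the start, are shown with 2 transport genes for contrast, read on the strand of the gene and with any of the 3 motifs in capitals.
Kif11, chr19:37376307-37376411, plus strand: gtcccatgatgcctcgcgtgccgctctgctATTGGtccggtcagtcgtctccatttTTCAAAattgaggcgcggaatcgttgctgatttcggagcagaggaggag
Kif15, chr9:122951006-122951110, plus strand: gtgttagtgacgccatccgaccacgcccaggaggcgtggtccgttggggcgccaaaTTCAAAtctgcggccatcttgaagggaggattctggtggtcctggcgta
Kif18b, chr11:102925095-102925199, minus strand: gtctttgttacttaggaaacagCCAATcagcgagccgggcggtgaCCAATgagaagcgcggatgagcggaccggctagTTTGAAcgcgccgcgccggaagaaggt
Kif20b, chr19:34922283-34922387, plus strand: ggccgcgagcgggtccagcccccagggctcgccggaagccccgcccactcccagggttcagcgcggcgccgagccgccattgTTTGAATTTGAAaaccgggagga
Kif22, chr7:127042391-127042495, minus strand: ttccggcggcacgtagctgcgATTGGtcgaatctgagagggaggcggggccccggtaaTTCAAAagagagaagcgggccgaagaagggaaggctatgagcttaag
Kif23, chr9:61946770-61946874, minus strand: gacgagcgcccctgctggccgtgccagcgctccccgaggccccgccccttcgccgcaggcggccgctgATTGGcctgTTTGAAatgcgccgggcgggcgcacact
Kifc1, chr17:33890604-33890708, minus strand: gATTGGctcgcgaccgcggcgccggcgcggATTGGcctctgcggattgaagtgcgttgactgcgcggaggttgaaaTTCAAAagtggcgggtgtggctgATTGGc
Kif4, chrX:100625990-100626094, plus strand: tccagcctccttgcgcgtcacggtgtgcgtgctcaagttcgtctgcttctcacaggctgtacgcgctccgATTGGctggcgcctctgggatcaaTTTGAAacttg
Kif3c, chr12:3365057-3365161, plus strand: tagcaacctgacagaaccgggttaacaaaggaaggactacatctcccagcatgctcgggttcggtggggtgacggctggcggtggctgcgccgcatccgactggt
Kif5c, chr2:49619211-49619315, plus strand: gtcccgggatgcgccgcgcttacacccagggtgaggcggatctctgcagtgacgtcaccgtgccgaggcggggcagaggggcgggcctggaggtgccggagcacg
The 8 mitotic stretches each hold TTTGAA or its reverse complement, and Kif20b holds it more than once in a row. The stretches of Kif3c and Kif5c hold none of the 3 motifs, though the windows of Kif1b, Kif3a and Kif3b, also transport genes, hold CCAAT. A match is a description of the letters and not of a bound site.

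The remaining kinesins include 3 that were highest in DRG neurons or near it. Kif2a, which trims microtubule ends in axons, stood at 14.3, 16.3 and 17.7 CPM in DRG neurons, at 1.99, 1.18 and 0.457 CPM in OPC and at 0.752, 0.665 and 0.442 CPM in astrocytes. DRG neurons were higher by log2 fold changes of 4.69 against astrocytes (SE 0.54, adjusted p = 9.23e-05) and 3.73 against OPC (SE 0.51, adjusted p = 0.00026); exons of Kif2a overlap Dimt1 on the other strand by 1229 bases. Kifc2, a minus-end motor of neurons, stood at 118, 63.8 and 63.2 CPM in DRG neurons, at 7.76, 2.87 and 3.92 CPM in OPC and at 13.4, 6.65 and 5.69 CPM in astrocytes, and was higher in DRG neurons in both comparisons. Kif26b, an atypical kinesin, stood at 94.6, 74.2 and 56.4 CPM in DRG neurons, at 4.76, 5.86 and 4.76 CPM in OPC and at 8.13, 45.2 and 55.8 CPM in astrocytes. OPC was lowest (log2 fold change 3.87 for DRG neurons against OPC, SE 0.62, adjusted p = 0.000596), and DRG neurons against astrocytes did not pass (adjusted p = 0.131). The 6 fibroblast markers summed to 396, 229 and 426 CPM in DRG neurons, 0.651 to 1.36 CPM in OPC and 13.4, 326 and 241 CPM in Astrocytes replicates 1, 2 and 3, so that they were lowest in OPC and, among astrocytes, in replicate 1, as Kif26b was. Their part in its differences was not tested. Its relative Kif26a averaged 8.21 ± 0.277 CPM in DRG neurons, 17.8 ± 8.35 CPM in OPC and 3.55 ± 1.24 CPM in astrocytes. OPC exceeded astrocytes (adjusted p = 0.00158), whereas the call of DRG neurons as higher than astrocytes (adjusted p = 0.0263) was lost with library size alone (0.0678) and without Astrocytes replicate 1 or 2 or any 1 DRG library (0.0524 to 0.0671), and that as lower than OPC (adjusted p = 0.0359) under RLE scaling (0.0605) and without any 1 DRG library or OPC replicate 1 or 2 (0.0627 to 0.158). Kifc3, a minus-end motor of cell junctions, averaged 4.86 ± 1.51 CPM in DRG neurons, 15.8 ± 6.35 CPM in OPC and 28.2 ± 5.16 CPM in astrocytes, and was lower in DRG neurons in both comparisons.

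Of the 6 kinesins known from cilia, all were lower in DRG neurons than in astrocytes, 3 were higher and 2 lower than in OPC, and 4 were lower in OPC than in astrocytes. Of all genes 32.8% were lower against astrocytes, 28.4% higher and 31.1% lower against OPC, and 25.5% lower in OPC against astrocytes, so the 2 lower against OPC, 33.3% of the 6, lay near the background. Kif27, which is needed for motile cilia, stood at 3.59, 3.54 and 1.39 CPM in DRG neurons, at 0.872, 0.753 and 0.433 CPM in OPC and at 70.4, 8.76 and 29.5 CPM in astrocytes. Kif6, which is known from ependymal cilia, stood at 2.03, 2.17 and 1.52 CPM in DRG neurons, at 0.156, 0.0814 and 0.120 CPM in OPC and at 49.2, 3.04 and 10.9 CPM in astrocytes. Kif9, a motor of motile cilia, stood at 2.00, 1.54 and 1.60 CPM in DRG neurons, at 0.134, 0.0407 and 0.0241 CPM in OPC and at 27.1, 3.09 and 8.85 CPM in astrocytes. In all 3 the astrocyte libraries lay above all others, with Astrocytes replicate 1 far above the rest. Without that library the log2 fold change of DRG neurons against astrocytes was -2.76 in place of -3.67 for Kif27, -1.87 in place of -3.46 for Kif6 and -1.81 in place of -2.93 for Kif9, and that of OPC against astrocytes -4.79 in place of -5.71, -5.83 in place of -7.43 and -6.42 in place of -7.55. All of these still passed. Without OPC replicate 1, Kif9 was at -8.50 in OPC against astrocytes and 5.57, in place of 4.63, in DRG neurons against OPC. Kif27 passed as higher in DRG neurons than in OPC (adjusted p = 0.0328) but not without any 1 of the OPC libraries or DRG replicate 1 or 2 (0.0587 to 0.0847).

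Kif19a, which sets the length of motile cilia, stood at 1.29, 1.41 and 0.594 CPM in DRG neurons, at 1.32, 0.407 and 0.313 CPM in OPC and at 49.3, 0.831 and 4.87 CPM in astrocytes. The groups overlapped, and both of its calls as lower than in astrocytes ended without Astrocytes replicate 1: the log2 fold change was then -1.38 in place of -4.06 in DRG neurons (adjusted p = 0.175) and -2.06 in place of -4.75 in OPC (0.0685). The first was also lost without any 1 DRG library (0.0584 to 0.0754), and the second without OPC replicate 2 (0.0611) or OPC replicate 3 (0.0548). Without OPC replicate 1 the second was -5.65. Kif24, which acts at the centriole before a cilium forms, averaged 4.16 ± 0.809 CPM in DRG neurons, 17.2 ± 5.95 CPM in OPC and 21.3 ± 0.268 CPM in astrocytes. Kif7, which acts at the tip of the primary cilium, averaged 0.0693 ± 0.0592 CPM in DRG neurons, 0.850 ± 0.282 CPM in OPC and 1.09 ± 0.262 CPM in astrocytes. Both were lower in DRG neurons in both comparisons, Kif7 on 7 counts over the DRG libraries.

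**Figure D5:**
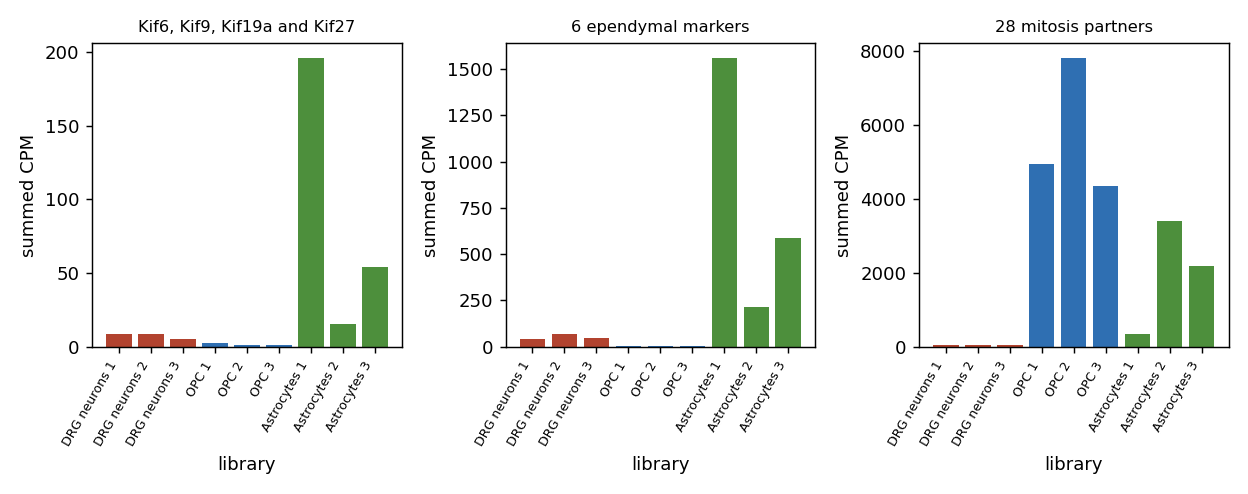
Summed CPM per library of Kif6, Kif9, Kif19a and Kif27 (left), of 6 ependymal markers (middle) and of 28 mitosis partners (right). Astrocytes replicate 1 has the highest bar of all libraries in the first 2 panels and the lowest bar of the glial libraries in the third.

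Markers of other cells also differed between these libraries. Kif6, Kif9, Kif19a and Kif27 summed to 196, 15.7 and 54.1 CPM in Astrocytes replicates 1, 2 and 3, and these 4 genes were grouped after their values were seen. The 6 ependymal markers summed to 42.8 to 69.2 CPM in DRG neurons, 4.91 to 6.68 CPM in OPC and 1561, 216 and 585 CPM in those astrocyte libraries. Of the 6, 2 were above 5 CPM by mean in DRG neurons, none in OPC and all in astrocytes. The 6 microglia markers summed to 8.75 to 15.3 CPM in DRG neurons, 14.6 to 163 CPM in OPC and 2413, 421 and 387 CPM in the 3 astrocyte libraries. Of the 6 fibroblast markers, 3 were above 5 CPM by mean in DRG neurons, none in OPC and 3 in astrocytes. These 6 summed to 13.4, 326 and 241 CPM in Astrocytes replicates 1, 2 and 3, lowest where the 4 kinesins were highest. The part of all these markers in the kinesin differences was not tested. Of 18 genes of intraflagellar transport, which the Kif3 motor drives in cilia, 1 was higher and 13 lower in DRG neurons against astrocytes, 5 higher and 2 lower against OPC, and 14 lower in OPC against astrocytes. The 13 and the 14 were 72.2% and 77.8% of the list, beside 32.8% and 25.5% of all genes, while the 5 were 27.8%, near the 28.4% of all genes. They summed to 617 to 709 CPM in DRG neurons, 454 to 537 CPM in OPC and 1827, 934 and 1217 CPM in the astrocyte libraries.

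Taken 2-fold or more against both other cultures, and past the test in both, 11 of the 41 tested kinesin genes were highest in DRG neurons (14.8% of all genes were), 7 in OPC (8.76%) and 4 in astrocytes (13.8%). The 11 were Kif1a, Kif2a, Kif3c, Kif5a, Kif5b, Kif5c, Kif13b, Kif21a, Kifc2, Klc1 and Klc2, the 7 were Kif11, Kif13a, Kif18b, Kif21b, Kif22, Kif26a and Kifc1, and the 4 were Kif6, Kif9, Kif19a and Kif27. By the same rule DRG neurons had the lowest level of 16 genes (14.7%), OPC of 7 (10.2%) and astrocytes of 3 (7.94%). The 16 comprised all 12 mitotic kinesins with Kif1c, Kif7, Kif24 and Kifc3. As shares of the 41, the 4 highest and the 3 lowest in astrocytes were no larger than the shares of all genes.

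Per kilobase of transcript, levels can be compared between the 29 members with a single accession. Kif5a, at a mean of 1405 CPM in DRG neurons, is not among these 29 and was not ranked. In DRG neurons Kif5c led with 318 ± 30.4 CPM per kilobase, followed by Kif5b with 205 ± 64.2 and Kif3c with 84.5 ± 1.95. In OPC Kif22 led with 96.2 ± 20.9 CPM per kilobase, followed by Kif11 with 60.5 ± 34.2 and Kif5b with 60.4 ± 31.6. In astrocytes Kif5b led with 82.3 ± 11.7 CPM per kilobase, followed by Kif1c with 58.9 ± 4.99 and Kif3b with 26.9 ± 0.294. Kif5c led in every DRG library and Kif5b in every astrocyte library. In OPC the order differed between libraries: Kif5b led in replicate 1, with 81.1 CPM per kilobase against 72.3 for Kif22, and Kif22 led in replicates 2 and 3. By mean, Kif11 and Kif5b differed by less than their SDs.

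OPC replicate 3 stood apart by transcript length: among genes of 4444 bases or more its median log2 ratio to the other OPC libraries was -0.29, and among genes of up to 1913 bases 0.25. Of the 44 members 23 reach 4444 bases, 13 of the 15 transport heavy chains and 5 of the 12 mitotic kinesins. Kif5b at 145 CPM in that library, against 489 and 459 CPM in the others, Kif1b at 37.1 against 83.8 and 90.9, and Kif16b at 10.8 against 21.5 and 20.7 were low there, as were the mitotic Kif11, Kif15, Kif18a and Kif20b among others, whereas Kif3c and Kif1c were highest there among OPC. With each library's trend on length removed, the calls of DRG neurons against astrocytes for Kif1b (adjusted p = 0.016) and Kif16b (0.0474) were gained and that of OPC against astrocytes for Kifc1 (0.0516) was lost, and every other member's call was the same.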

How the data were processed

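Poly(A) RNA of 9 libraries, 3 per cell type, was sequenced with a stranded mRNA kit, per the labels' protocols. Reads were aligned to mm10 with TopHat2 and counted with HTSeq, per the submitters' processing notes. The strand setting and mode of HTSeq, like all versions, are not given in the sources used here. Raw read counts per RefSeq accession, without normalization, were deposited by the authors. Reads shared by isoforms were set aside as ambiguous, so genes with several accessions, 15 of the 44, are under-counted. All ambiguous reads made up 22.0% to 24.7% of a library. They can include reads shared by different genes, and the part due to isoforms was not measured. Unassigned totals stayed out of library sizes.

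Accessions were named from RefSeq (GRCm38.p6) and GENCODE vM21 and summed per gene. All 9 libraries entered 1 edgeR 4.0.16 quasi-likelihood fit (R 4.3.3) with TMM factors, filterByExpr (minimum count 10) and Benjamini-Hochberg adjustment over 14848 genes. The SE is the log2 fold change divided by the root of its F statistic. The test was also run on simulated counts with the same spread for every gene and few genes changed, in DRG neurons alone. These data differ from that setting, so the simulation does not show how the test performs on them. Sums of 2 further marker lists are not reported here. Every kinesin gene was eligible to be named, and the members and lists were chosen with earlier results of these data known. Replicate numbers were taken as names of samples and not as pairs. Correlations of same-numbered libraries ran from -0.0357 to 0.128, and they cannot exclude a shared preparation. Alternatives were RLE factors, library size alone, other filters, DESeq2 1.42.0, only the compared libraries, a replicate block, removal of a length trend, the most counted accession and leaving out libraries. Recounts by role and the accessions of Kif1b were added after seeing the data.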

Additional observations from a re-analysis of the deposited data

How the results depend on the processing

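Across 19 alternatives, 77 of the 94 called gene differences stayed past the threshold in the same direction under all of them, and all 12 mitotic kinesins stayed lower in DRG neurons against either glial culture. The count of kinesin genes higher in OPC than in astrocytes, 11, was 7 with only the compared libraries and 5 to 12 when 1 library was left out. The 4 mitotic kinesins among them were 1 with only the compared libraries and 0 to 7 when 1 library was left out. The cause was not tested. In the labels, same-numbered libraries shared only a number. With the replicate block, 14 kinesin genes were higher and 20 lower for DRG neurons against astrocytes, 17 and 18 against OPC, and 12 and 13 for OPC against astrocytes. It ended the calls of Kif19a against astrocytes (adjusted p = 0.0614), of Kif1b (0.0586) and Kif26a (0.0603) against OPC, and of Kifc1 in OPC against astrocytes (0.0793), and gained Kif2c, Kif14, Kifc2 and Kifc3 in the last comparison. Library size alone moved the median log2 fold change of all genes by -0.26 for DRG neurons against astrocytes, -0.15 against OPC and -0.11 for OPC against astrocytes, and RLE factors moved the second by 0.17.

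The log2 fold change of Kif1b was -3.63 against astrocytes and -3.28 against OPC with its most counted accession, the shorter one, in place of the sum. The other reversals were of differences that had not passed. For DRG neurons against astrocytes, Kif17 (-0.08) was 0.34 with the replicate block, 1.93 without Astrocytes replicate 1 and OPC replicate 3, and -0.55 to 1.83 with 1 library left out, where it was 0.22 without DRG replicate 3 and 0.02 without OPC replicate 3. Kif21b (-0.45) ran from -0.80 to 0.055 with 1 library left out and was highest without DRG replicate 3. Klc4 (-0.11) was 0.0052 with the length trend removed, 0.15 without those 2 libraries and -0.301 to 0.049 with 1 library left out, highest without Astrocytes replicate 1. For DRG neurons against OPC, Kif3a (0.08) was -0.18 with the block, -0.03 without those 2 libraries, and -1.50 to 0.95 with 1 library left out, lowest without DRG replicate 1, with -0.14 without OPC replicate 2 and -0.03 without OPC replicate 3. For OPC against astrocytes, Kif17 (-0.85) was 0.98 without those 2 libraries and -1.31 to 1.07 with 1 library left out, Kif23 (0.48) was -0.022 to 1.23, lowest without Astrocytes replicate 1, and Klc2 (0.26) was -0.31 without those 2 libraries and -0.16 to 0.43 with 1 library left out, lowest without OPC replicate 3. Depth limits Kif2b, Kif12, Klc3 and Kif17, which had few counts.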
